A study of Mus musculus with 6 samples.

Results

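The 8 genes followed here belong to sterol synthesis and its control, and were measured in sorted bone marrow cells of leukemic mice: Hmgcs1, Idi1, Fdft1, Sqle, Lss, Cyp51, Insig1 and Srebf2. They were chosen by symbol, and each was read at its probe set with a single gene symbol, the one with the highest mean where a gene had more than 1. Of these 8 genes, 7 had such a probe set among the 22180 genes measured this way, 1 each. Idi1 was not analysed further, because its probe set was paired with a second symbol, Gm13502. None of the 8 genes encodes a lipoprotein receptor of the cell surface, so uptake was read from a separate list. The 6 arrays came from mice with acute myeloid leukemia (AML, 3 arrays) and mice with chronic myeloid leukemia (CML, 3 arrays). All 6 samples carried the Col2.3 GFP genotype, a green fluorescent reporter of the osteoblast lineage driven by part of the Col1a1 promoter. The labels call the cells osteoblastic, from bone marrow, and the titles call them stromal. The way the leukemias were induced, the age of the mice and any pooling of animals are not stated in the labels. The groups follow the titles, but every source name says CML, so each direction below depends on the titles being right.

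Cells make cholesterol from acetyl-CoA through mevalonate, isoprenoids and squalene, which is closed into the sterol ring and then trimmed. The transcription factor SREBP2, the product of Srebf2, raises transcription of most of these enzymes when sterol in the endoplasmic reticulum is low, and INSIG proteins hold it back when sterol is high. Dividing cells need sterol for new membrane, and marrow holds many dividing blood precursors beside the bone-forming cells.

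The promoters of 4 members that were highest on the same arrays, as described further on, are shown because SREBP2 is known to act at such promoters, mostly beside NF-Y. RefSeq windows of GRCm38.p6, from 250 bases before to 50 after the start site, matched 6 of the 8 members, all but Sqle and Fdft1. Each is written 5′ to 3′ on the strand of the gene. Capitals mark matches on either strand to TCACNCCAC, CACCCCAC or TCACCNCA, which are letters of the sterol regulatory element, and to CCAAT, the letters of the NF-Y box. The windows are chr13:119690101-119690400 on the plus strand for Hmgcs1, chr5:28071162-28071461 on the plus strand for Insig1, chr5:4104648-4104947 on the minus strand for Cyp51 and chr15:82147019-82147318 on the plus strand for Srebf2.
Hmgcs1: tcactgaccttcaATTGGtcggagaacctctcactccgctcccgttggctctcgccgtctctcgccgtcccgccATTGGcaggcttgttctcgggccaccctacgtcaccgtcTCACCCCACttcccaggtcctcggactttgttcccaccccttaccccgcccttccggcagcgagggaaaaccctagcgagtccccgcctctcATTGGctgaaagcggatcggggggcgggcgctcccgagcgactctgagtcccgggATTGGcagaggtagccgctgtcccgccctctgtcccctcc
Insig1: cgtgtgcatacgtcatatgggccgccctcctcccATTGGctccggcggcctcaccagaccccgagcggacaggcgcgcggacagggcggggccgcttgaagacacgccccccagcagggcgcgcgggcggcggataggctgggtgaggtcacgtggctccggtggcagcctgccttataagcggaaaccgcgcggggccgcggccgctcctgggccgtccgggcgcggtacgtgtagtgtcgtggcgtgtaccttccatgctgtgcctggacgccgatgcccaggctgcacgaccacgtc
Cyp51: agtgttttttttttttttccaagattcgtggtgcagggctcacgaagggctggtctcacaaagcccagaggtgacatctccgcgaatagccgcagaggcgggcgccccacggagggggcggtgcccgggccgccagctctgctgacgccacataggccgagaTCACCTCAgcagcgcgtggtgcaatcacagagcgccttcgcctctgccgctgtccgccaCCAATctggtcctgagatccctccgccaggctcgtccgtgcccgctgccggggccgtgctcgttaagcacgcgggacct
Srebf2: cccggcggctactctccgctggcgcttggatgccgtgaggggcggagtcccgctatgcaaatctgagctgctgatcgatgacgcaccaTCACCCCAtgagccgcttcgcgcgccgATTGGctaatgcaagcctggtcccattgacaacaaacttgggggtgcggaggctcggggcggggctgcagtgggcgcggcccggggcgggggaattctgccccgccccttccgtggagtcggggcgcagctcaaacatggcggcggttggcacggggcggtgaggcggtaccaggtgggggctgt

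The window of Hmgcs1 held TCACCCCAC, which starts at position -137 relative to the start site and matched all 3 sterol element spellings, which overlap there. TCACNCCAC and CACCCCAC each matched in 1 of the 6 member windows, that of Hmgcs1. Of all 32851 windows, TCACNCCAC occurs in 1.24% and CACCCCAC in 2.87%. TCACCNCA was added after the windows had been seen, so its count in the members cannot be weighed against its share in all windows. It matched in Hmgcs1, Cyp51 and Srebf2, 3 of the 6 members with a window, and in 4.42% of all windows. It started at position -88 in Cyp51 and -162 in Srebf2. CCAAT matched in all 6 member windows and in 37.4% of all windows, with 4 matches in Hmgcs1 and 1 each in Insig1, Cyp51 and Srebf2. The GC box letters GGGCGG, not capitalised, also matched in all 6 and in 35.7% of all windows. These matches describe letters and were not tested as binding sites.

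The labelled cell type was checked against marker lists first. Col1a1, the main collagen of bone, had log2 intensities of 8.63, 9.87 and 7.26 on the AML arrays and 10.22, 8.71 and 11.95 on the CML arrays. Bglap, which encodes osteocalcin, was at 4.44, 4.84 and 3.31 in AML and at 4.8, 4.25 and 7.04 in CML, so it stood clearly above the array medians of 4.11 to 4.35 on CML 3 alone. Ptprc, the leukocyte marker CD45, was at 9.30, 9.0 and 8.17 in AML and at 8.27, 4.96 and 6.16 in CML. Markers of bone and of blood cells were thus both present, with Col1a1 and Ptprc above the array medians on every array. The lowest linear intensity of any probe set was 2.71, so a value above 0 does not show that a marker is expressed. Differences below may come from other numbers of cells of a type or from other amounts of RNA per cell, which cannot be told apart in bulk samples. Over all genes, 1.91% passed limma at an adjusted p of 0.05, 405 higher and 18 lower in AML. The labels do not tie the arrays to separate mice, so the p-values may reflect technical spread alone.

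None of the 7 measured members passed in the comparison of AML with CML (limma, adjusted p under 0.05), against 1.91% of all genes. At an unadjusted p under 0.05, 1 of 7 members was past, Hmgcs1, against 21.5% of all genes and 30.8% of the brighter 50% of genes, ranked by mean level, where all 7 members lie. It was also the only member whose groups did not overlap, against 31.3% of all genes. By value 6 members were higher in AML, against 38.3% of all genes and 59.8% of the brighter 50%, and 1 was lower, with a median difference of 0.15 on the log2 scale. The median of all genes was -0.11, and that of the brighter 50% was 0.17. Median centring of the arrays moved the median of all genes to 0.04 and that of the members to 0.30. The share of members called was therefore near the background, and their median was close to that of the brighter 50%.

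Hmgcs1 encodes the cytosolic synthase that makes HMG-CoA, an early intermediate on the way to mevalonate. Its log2 intensities were 5.94, 6.25 and 6.28 on AML 1, 2 and 3 and 4.97, 5.91 and 5.53 on CML 1, 2 and 3 (probe set 17290173). Every AML array was above every CML array, by 0.03 at the closest pair. The difference of 0.68 (95% interval 0.07 to 1.30) corresponds to 1.61-fold, and its limma adjusted p was 0.203. It ran from 0.43 without CML 1 to 0.90 without CML 2.

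Fdft1 encodes squalene synthase, the branch point from isoprenoids to sterols. Its levels were 6.74, 6.56 and 7.55 in AML and 5.83, 7.33 and 6.38 in CML (log2 intensity). The highest arrays were AML 3 and CML 2 in their groups, and the groups overlapped. The difference was 0.44 (95% interval -0.60 to 1.47; limma adjusted p = 0.540). It was 0.092 without CML 1, 0.13 without AML 3 and 0.85 without CML 2, so single arrays set its size.

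Sqle encodes squalene epoxidase, the oxygen-dependent step that is often limiting. It had log2 intensities of 5.14, 4.31 and 6.79 in AML and 4.40, 6.71 and 4.67 in CML. On the linear scale these were 35.4, 19.8 and 111 in AML and 21.2, 105 and 25.5 in CML. A bright array was thus found in each group, AML 3 and CML 2, and the other 4 arrays were far dimmer. The difference between the leukemias was 0.15 with an interval of -1.78 to 2.09, which spans more than 1 log2 unit on either side of 0 (limma adjusted p = 0.917). Its sign turned without AML 3 (-0.54), without CML 1 (-0.28) and without CML 3 (-0.14), and it was 0.87 without CML 2.

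Lss encodes lanosterol synthase, which closes the sterol ring. It was dim, at 4.55, 4.43 and 4.96 in AML and at 5.07, 4.71 and 4.40 in CML, against array medians of 4.11 to 4.35. The groups overlapped, and the difference was -0.08 (95% interval -0.63 to 0.47; limma adjusted p = 0.842). It was just above 0 after quantile normalization, median centring and cyclic loess (0.02, 0.07 and 0.06), so it has no settled direction.

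Cyp51 encodes the demethylase that works on lanosterol. Its log2 intensities were 5.11, 4.98 and 6.30 in AML and 5.35, 5.63 and 5.03 in CML. AML 3 again stood above the rest, and CML 2 was the highest CML array. The difference was 0.13 (95% interval -0.76 to 1.02; limma adjusted p = 0.840), and it turned to -0.29 without AML 3 and to -0.03 without CML 3.

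Insig1 encodes the membrane protein that retains the SREBP escort SCAP and is itself a target of SREBP. It had log2 intensities of 6.90, 6.88 and 7.04 in AML and 5.17, 6.89 and 6.63 in CML. The AML arrays lay close together (SD 0.09), the CML arrays were spread (SD 0.92, n = 3 each), and CML 1 was lowest. CML 2 lay between the AML arrays, and the difference of 0.71 did not pass (95% interval -0.33 to 1.74; limma adjusted p = 0.352). Without CML 1 it was 0.18, and without CML 2 it was 1.04.

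Srebf2 itself was at 7.41, 7.56 and 7.80 in AML and at 7.62, 7.81 and 7.20 in CML. The groups overlapped almost fully, with a difference of 0.05 (95% interval -0.45 to 0.54; limma adjusted p = 0.900), which turned to -0.20 after quantile normalization and -0.30 after cyclic loess. SREBP2 is known to be controlled by cleavage of its precursor, which these arrays do not measure.

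**Figure D1:**
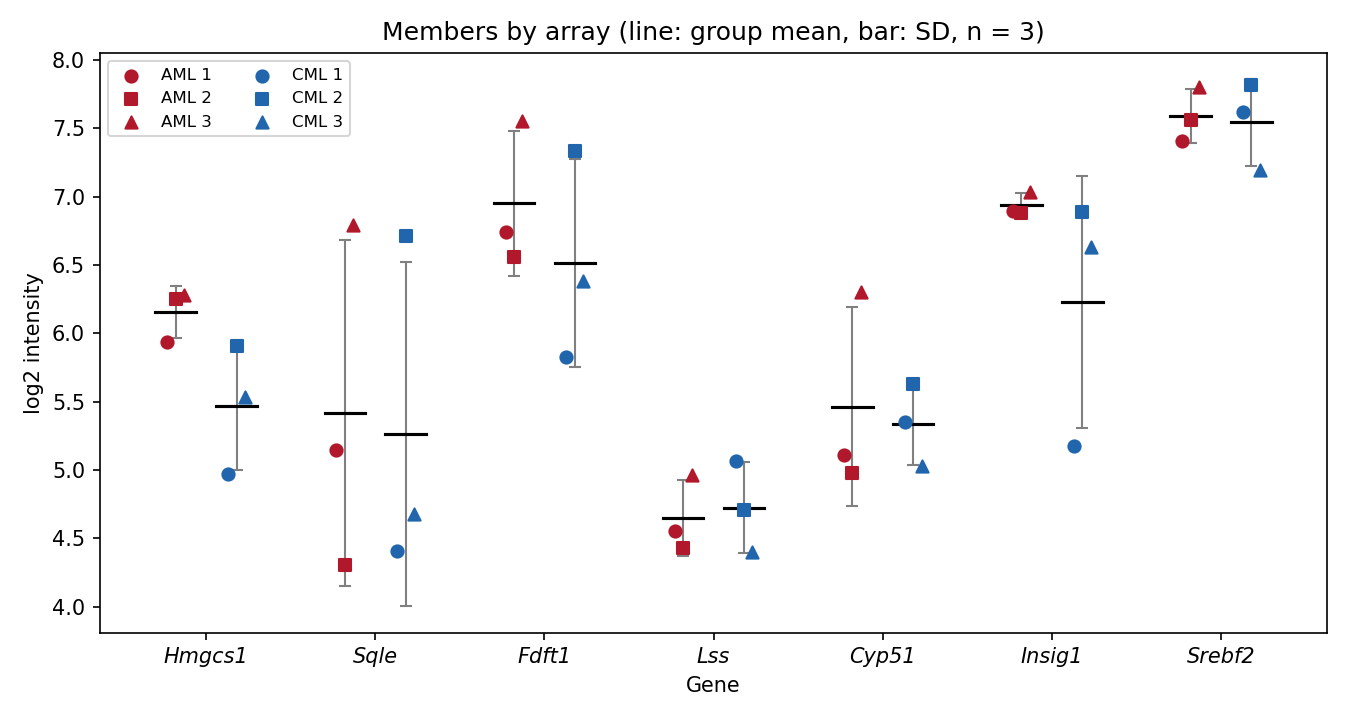
Log2 intensity (vertical axis) of the 7 measured members (horizontal axis) on the AML arrays (red, left of each pair) and the CML arrays (blue, right), with the array number as the symbol, the group mean as a line and the SD as a bar (n = 3 each). AML 3 and CML 2 stand apart from the rest for Sqle, at 6.79 and 6.71, and Hmgcs1 is the member whose groups do not overlap.

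Several members varied widely between arrays of the same leukemia. The pooled SD within groups was 1.26 for Sqle, at percentile 98.6 of the brighter 50% of genes. It was 0.66 for Fdft1, 0.66 for Insig1 and 0.56 for Cyp51, against a median of 0.35 in that brighter 50%. Srebf2, Lss and Hmgcs1 had SDs of 0.26, 0.31 and 0.36, near that median. Within each leukemia the same array was mostly highest. It was AML 3 among the AML arrays for 7 of 7 members and CML 2 among the CML arrays for 6 of 7, all but Lss, so that both held for 6 of 7. Both held for 17.3% of all genes and for 25.7% of the brighter 50%. This pattern was noticed in the data and is given without a test. The mean log2 level over the 7 members was 5.97, 5.85 and 6.67 on AML 1, 2 and 3 and 5.49, 6.43 and 5.69 on CML 1, 2 and 3, which average 6.16 ± 0.45 for AML and 5.87 ± 0.49 for CML (SD over 3 arrays each).

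The members did not all follow 1 pattern. Over the 6 arrays the Pearson correlation of log2 levels, a description of values that share the same arrays, was 0.91 between Sqle and Fdft1, 0.91 between Hmgcs1 and Insig1 and 0.84 between Cyp51 and Sqle. It was -0.55 between Insig1 and Lss and -0.35 between Hmgcs1 and Lss. Hmgcs1 and Insig1 were lowest on CML 1 and differed less between AML 3 and the other AML arrays, while Sqle and Cyp51 were set apart by AML 3, and Lss was highest on CML 1. Fdft1 shared both features, being highest on AML 3 and lowest on CML 1, and correlated at 0.78 with Hmgcs1 and 0.79 with Insig1.

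Other genes of at least median brightness were compared with the mean of the members. Genes with Gm or Rik symbols, small RNA genes and olfactory and vomeronasal receptors were left out. Among those compared, the levels most like that mean were those of Tmx1, Cfap36, Cd151, Rcl1 and Osgepl1. Their Pearson correlations with it over the 6 arrays ran from 0.988 for Osgepl1 to 0.998 for Tmx1. Tmx1, a thioredoxin-like protein of the endoplasmic reticulum membrane, was at 7.46, 7.33 and 8.11 in AML and at 7.07, 7.88 and 7.26 in CML. Of 10179 genes compared, 70 had a correlation above 0.95, which describes 6 arrays only.

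Markers of dividing and of erythroid cells had the same high arrays. The mean log2 level of 11 measured genes of DNA replication and mitosis was 8.23, 8.14 and 8.75 on AML 1, 2 and 3 and 7.92, 8.50 and 8.02 on CML 1, 2 and 3. All 6 arrays stood in the same order on this list as on the members. For 11 of 11 of these genes AML 3 and CML 2 were highest in their groups, among them Mki67, at 9.24, 9.49 and 9.99 in AML and 9.74, 10.41 and 10.25 in CML. The 6 measured of 12 erythroid markers, Klf1, Epor, Slc4a1, Ermap, Rhag and Tfrc, averaged 5.24, 7.21 and 9.0 in AML and 8.0, 9.83 and 9.22 in CML, again with AML 3 and CML 2 highest in their groups for 6 of 6. Their order over all 6 arrays differed from that of the members, since CML 3 was above AML 3.

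Markers of other cells ran the other way or did not follow. The 12 pan-haematopoietic markers averaged 9.29, 9.18 and 8.55 in AML and 8.10, 6.59 and 7.20 in CML. The 9 measured of 12 osteoblast markers averaged 6.30, 7.22 and 5.75 in AML and 7.28, 6.36 and 9.02 in CML. On both lists AML 3 and CML 2 were lowest in their groups. The 12 myeloid precursor markers averaged 10.85, 10.69 and 9.95 in AML and 8.37, 7.67 and 8.74 in CML, and there too AML 3 and CML 2 were lowest. The 8 measured B lineage markers averaged 4.27, 5.35 and 4.22 in AML and 8.02, 4.37 and 6.14 in CML. The 7 measured adipocyte markers averaged 4.33, 4.33 and 4.03 in AML and 3.96, 4.73 and 4.40 in CML, and the 8 endothelial ones 4.18, 4.37 and 4.17 in AML and 4.51, 4.13 and 4.28 in CML. Over all genes, the deviations of AML 3 and of CML 2 from their group means correlated at 0.47 (across genes, which are not independent replicates), so these arrays shared more than the sterol genes. The part of any of these cell types in the levels of the members was not tested.

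**Figure D2:**
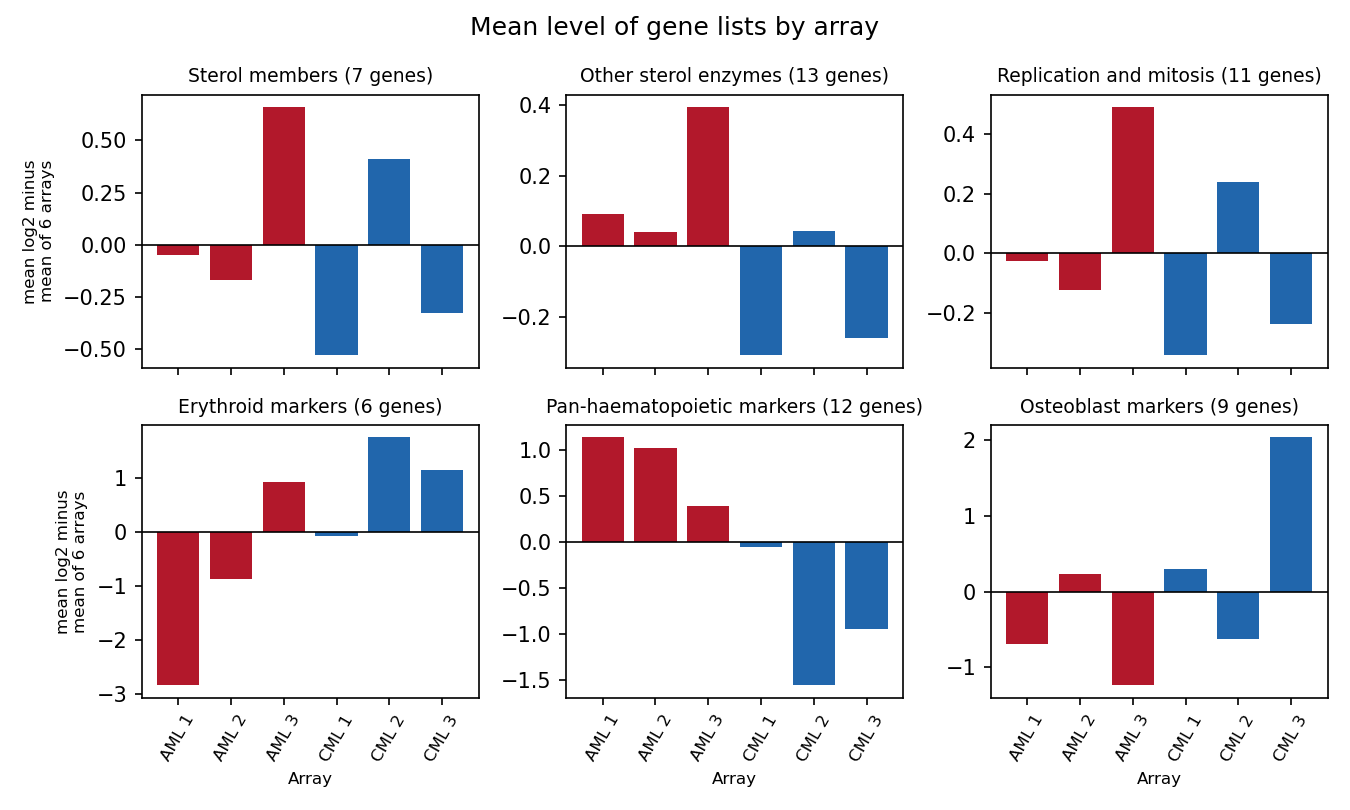
Mean log2 intensity of each gene list on each array minus its mean over the 6 arrays (vertical axes, each panel with its own scale), for the AML arrays (red) and the CML arrays (blue). AML 3 and CML 2 are the highest arrays of their groups for the sterol members, the replication and mitosis genes and the erythroid markers, and the lowest for the pan-haematopoietic and osteoblast markers.

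The other mevalonate enzymes also gave no call, with 0 of 5 measured genes past the threshold in limma. At an unadjusted p under 0.05, 1 of 5 was past, against 21.5% of all genes. The median difference was 0.37, but 0.13 after quantile normalization, 0.092 after cyclic loess and 0.14 without AML 3. Fdps, the synthase of farnesyl diphosphate, was at 7.75, 7.77 and 7.85 in AML and at 5.75, 7.89 and 6.71 in CML, so that the AML arrays were tight and CML 1 was lowest, as for Insig1 (difference 1.01, SE 0.50; limma adjusted p = 0.281). The difference was 0.49 without CML 1 and 1.56 without CML 2. Mvd, the mevalonate diphosphate decarboxylase, differed by 0.39 ± 0.16 (SE) in the same direction (limma adjusted p = 0.225). Ggps1, which leads to geranylgeranyl diphosphate and away from sterols, stood at -0.28 ± 0.16 (SE; limma adjusted p = 0.325).

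Of the other enzymes that work on sterols after squalene, 0 of 8 measured genes passed in limma. At an unadjusted p under 0.05, 2 of 8 were past, against 21.5% of all genes. The median difference was 0.37, with 0.25 after cyclic loess, 0.22 without AML 3 and 0.16 without CML 3. Ebp, the sterol isomerase also known as emopamil-binding protein, came closest. Its log2 intensities were 6.17, 6.38 and 6.72 in AML and 4.71, 5.48 and 5.07 in CML. The groups were clearly apart, with a 2.53-fold difference of 1.34 ± 0.24 (SE, log2; limma adjusted p = 0.0527). It passed after median centring, in the brighter 50% of genes alone, with array weights and without CML 2 (limma adjusted p = 0.0337, 0.0387, 0.0415 and 0.0450). It did not pass in any other alternative fit. Among these were quantile normalization, cyclic loess and the replicate block (limma adjusted p = 0.0880, 0.0808 and 0.122). Lbr, which is both a sterol reductase and the lamin B receptor of the nuclear envelope, was 0.72 ± 0.25 higher by value, and Sc5d, a desaturase, 0.54 ± 0.39 (SE; limma adjusted p = 0.182 and 0.412). Over both lists, 7 of the 13 other enzymes measured were highest on AML 3 and on CML 2 in their groups. Both held for 17.3% of all genes and for 25.7% of the brighter 50%, and the contrast was not tested.

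**Figure D3:**
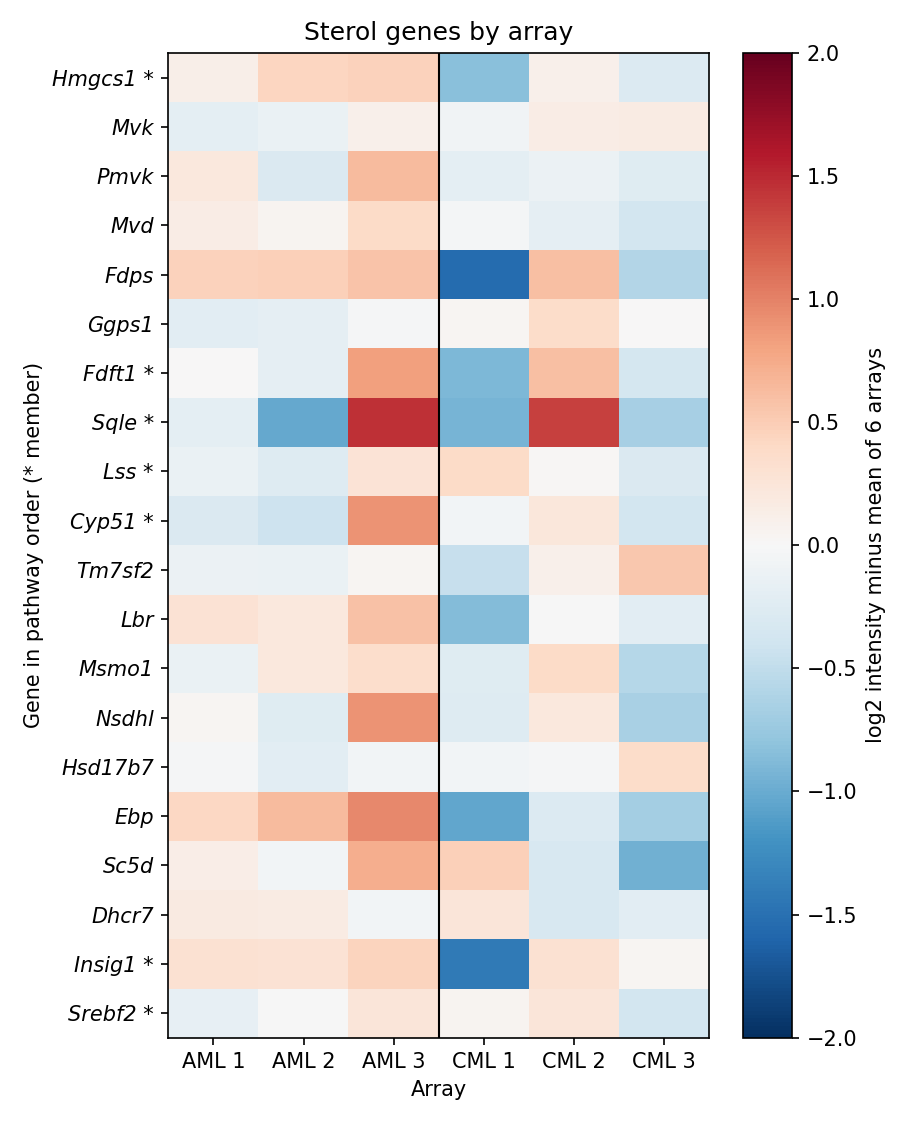
Log2 intensity minus the gene's mean over the 6 arrays (colour, from blue below to red above) for 20 measured sterol genes in pathway order (rows, members with an asterisk, regulators last) on the AML arrays (left of the line) and the CML arrays (right). Sqle, Fdft1 and Cyp51 are highest on AML 3, Sqle and Fdft1 are also high on CML 2, and Ebp is above its mean on all 3 AML arrays.

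Among the other genes that control SREBP cleavage and the breakdown of sterol-regulated proteins, 6 of 9 measured were higher by value in AML. In limma 1 of the 9 passed, as higher in AML, against 1.91% of all genes. This was Erlin1, which encodes a cholesterol-binding protein of the endoplasmic reticulum membrane that is known to restrain SREBP and to take part in protein breakdown at that membrane. Its log2 intensities were 6.13, 6.11 and 5.47 in AML and 3.78, 4.01 and 3.87 in CML. All CML arrays were below their own array medians, which were 4.22 to 4.35, and their level may hold little signal, so the size of the rise is uncertain. The difference was 2.01 ± 0.21 (SE; limma adjusted p = 0.0206), and 1.5 with an offset of 10 added before log2 (limma adjusted p = 0.0389). It did not pass without AML 1, AML 2 or CML 3 (limma adjusted p = 0.0988, 0.124 and 0.0769), with 1.90, 1.91 and 2.0 as its differences, nor with the replicate block (limma adjusted p = 0.0986), and in these 4 fits no gene passed. Of the pan-haematopoietic markers, 12 of 12 were higher in AML by value and 3 were past the threshold (median difference 1.80). For the myeloid precursor markers, 12 of 12 were higher and 6 past it (median 2.54). Over all genes 38.3% were higher and 1.91% were past the threshold in either direction. Erythroid and B lineage markers went the other way, with 6 of 6 and 8 of 8 measured lower and 0 past the threshold (medians -1.88 and -1.91). The part of any of these cell types in the rise of Erlin1 was not tested. Erlin2, its partner, was at 6.17, 5.66 and 5.63 in AML and at 4.37, 5.15 and 6.19 in CML, and its groups overlapped.

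Srebf1 and the direct partners of SREBP did not pass. Insig2, the second INSIG, was 0.32 ± 0.16 higher by value, Srebf1, which encodes the SREBP1 proteins, 0.27 ± 0.20 and Scap, the sterol-sensing escort, 0.24 ± 0.39 (SE; limma adjusted p = 0.287, 0.407 and 0.702). The value of Scap turned to -0.01 after quantile normalization and -0.07 after cyclic loess, and its other probe set gave -0.03. Mbtps1, the first protease that cuts SREBP, stood at -0.02 ± 0.19 (SE).

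Uptake and lysosomal export of cholesterol also gave no calls, with 0 of 9 measured genes past in limma. At an unadjusted p under 0.05, 4 were past, 3 higher and 1 lower in AML. The share past it was 21.5% of all genes and 30.8% of the brighter 50%, and the contrast was not tested. The list's median difference was 0.46. Scarb1, the receptor for high-density lipoprotein, was at 6.45, 7.07 and 6.94 in AML and at 5.91, 6.22 and 5.14 in CML, so its groups did not overlap (difference 1.06 ± 0.31, SE; limma adjusted p = 0.138). Npc1, which exports cholesterol from lysosomes, differed by 0.52 ± 0.18 (SE; limma adjusted p = 0.178), with 0.30 at its other probe set. Vldlr, the receptor for very-low-density lipoprotein, was at -0.59 ± 0.17 (SE; limma adjusted p = 0.135) and dim, at 3.83 to 4.05 in AML and 4.26 to 4.69 in CML. Of these 9 genes, 1 was highest on AML 3 and on CML 2 in their groups, where 6 of 7 members were. Both held for 17.3% of all genes and for 25.7% of the brighter 50%. The contrast of this list with the members was not tested.

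On the side of efflux and oxysterols, 0 of 6 measured genes passed in limma. At an unadjusted p under 0.05, 1 was past, against 21.5% of all genes. The list's median difference was -0.01, which had no settled sign (-0.12 without AML 2 and 0.14 after median centring). Apoe, which encodes a lipoprotein component that accepts cholesterol, was 0.44 ± 0.18 higher by value. Nr1h3, which encodes the oxysterol receptor LXR alpha, was at -0.35 ± 0.16, and the exporter gene Abca1 at -0.40 ± 0.29 (SE; limma adjusted p = 0.221, 0.253 and 0.409). Nr1h3 was dim on all arrays, from 3.68 to 4.33.

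**Figure D4:**
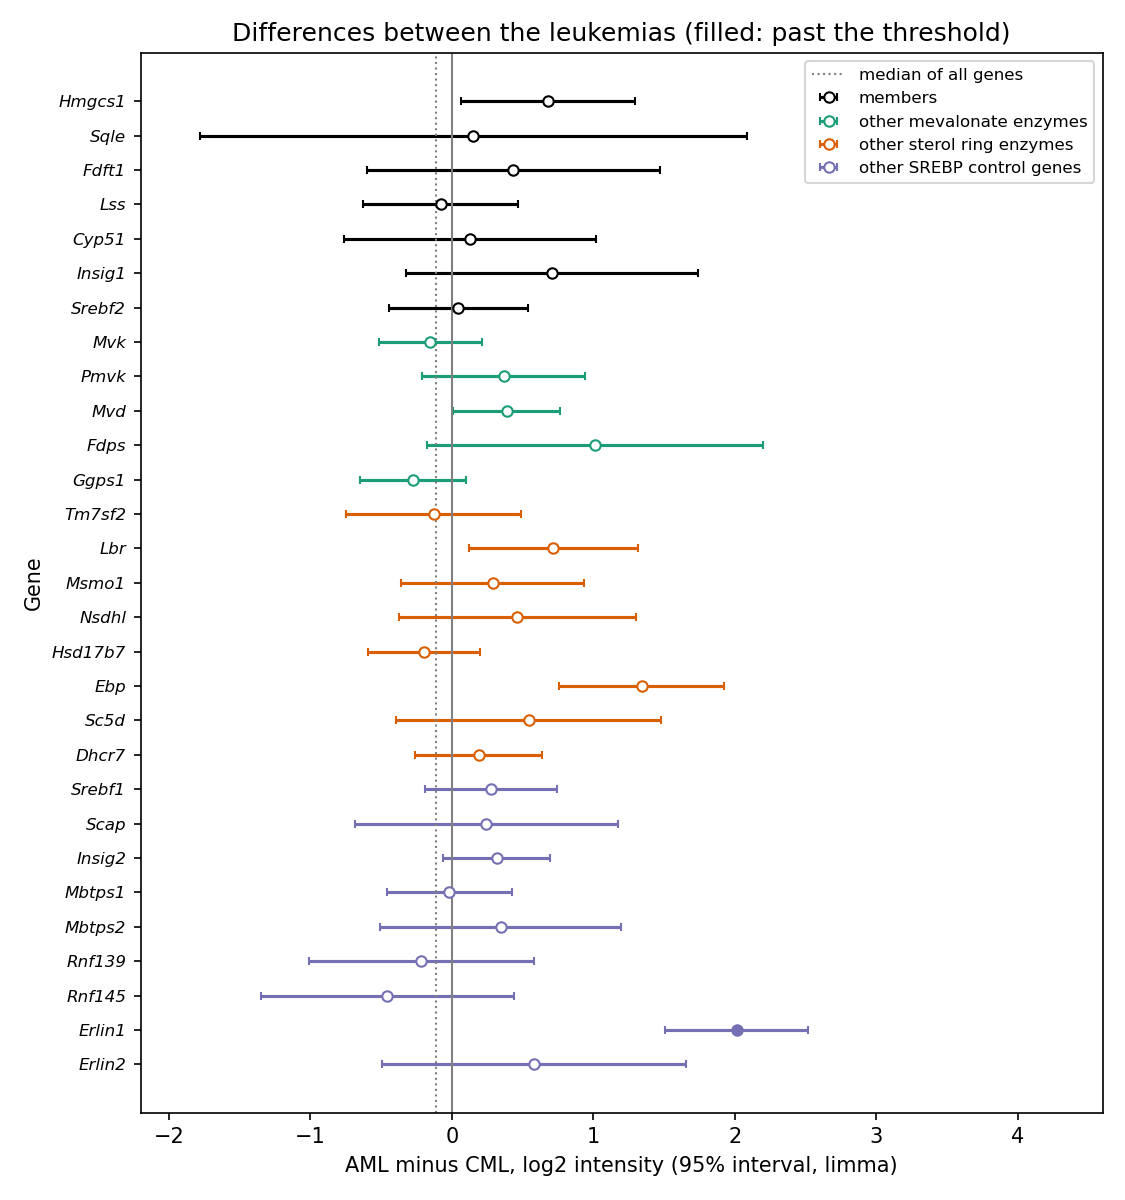
Difference AML minus CML in log2 intensity (horizontal axis) with its 95% interval from limma for the members and 3 further lists (rows, coloured by list), with the median of all genes as a dotted line at -0.11. Filled points passed the threshold, which holds for Erlin1 at 2.01, and the interval of Sqle is the widest, from -1.78 to 2.09.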

How the data were processed

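Amplified RNA of sorted bone marrow cells was put on GeneChip arrays, 1 for each sample, per the labels. The deposited table holds linear intensity values of 39721 probe sets, from 2.71 to 8583, as judged from the values. Limma and lumi are named, without versions, in the submitters' processing notes. Background correction, summarisation and normalization by the authors are not given in the sources used here, and medians differ between arrays, so an unremoved difference in scale could shift every gene. No detection p-value was used, so dim probe sets may hold little signal. The number of arrays limits the precision.

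The platform annotation paired 23521 probe sets with 1 symbol, 1814 with several and 14386 with none. Log2 intensity (floor 1, reached by 0 values) of 22180 genes entered limma 3.58.1 (R 4.3.3; lmFit, eBayes, two-sided, AML minus CML). P-values were adjusted by Benjamini-Hochberg over all genes, with 0.05 as the threshold. Errors are moderated SEs or 95% intervals. The steps were tested on simulated data, where 38% of log2 changes of 1 and 80% of log2 changes of 2 were called, with 3 false calls. The largest difference of a member was 0.71, so changes of that size could be missed.

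The members, lists and tests were chosen with earlier results of these data known. Lists are described by counts and medians, with no set test. Named genes were the members and, from each further list, every gene past the threshold or else the 3 with the lowest unadjusted p. Srebf1, Scap, Insig2, Col1a1, Bglap, Ptprc and Mki67 were also named. So were the 5 genes most correlated with the members among the 10179 compared. Klf1, Epor, Slc4a1, Ermap, Rhag, Tfrc, Erlin2, Mbtps1, Elovl5 and Acss2 were named after their values were seen. Some genes of these lists are not reported here. Same-numbered AML and CML arrays are not known to be paired. Plots used matplotlib 3.10.9 (Python 3.11.15).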

Additional observations from a re-analysis of the deposited data

How the results depend on the processing

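No member passed in limma in any of the 16 alternative fits, which were 3 scalings, a filter, an offset of 10 before log2, the mean of probe sets, trended robust moderation, array weights, a replicate block, leaving out each array and, chosen after seeing the data, leaving out AML 3 and CML 2 together. The lowest adjusted p was 0.0994, for Hmgcs1 without CML 2. Hmgcs1, Fdft1 and Insig1 were above 0 in all 16, at 0.43 to 0.90, 0.092 to 0.85 and 0.18 to 1.04. Signs turned for Lss (0.015, 0.071 and 0.061 after quantile normalization, median centring and cyclic loess; -0.24 to 0.093 with 1 array left out), Srebf2 (-0.20 after quantile normalization, -0.30 after cyclic loess; -0.13 to 0.18 with 1 array left out), Cyp51 (-0.14 without AML 3 and CML 2; -0.29 to 0.37 with 1 array left out), Sqle (-0.54 to 0.87) and Scap (-0.0092 after quantile normalization, -0.075 after cyclic loess and -0.072 without AML 3 and CML 2; 0.00045 to 0.71 with 1 array left out). The cause was not tested. The members' median ran from -0.060 without AML 3 and -0.03 without CML 3 to 0.63 without AML 2 and 0.85 without CML 2, and was 0.19 without AML 3 and CML 2. All genes past the threshold numbered 423 as fitted, 93 after quantile normalization, 64 after cyclic loess, 896 after median centring, 253 with the offset, 639 with array weights, 203 without AML 3 and CML 2, and from 0 to 438 with 1 array left out. The replicate block gave 0, with 3711 at an unadjusted p under 0.05. Without AML 1, AML 2 or CML 3 it was also 0, with 3048, 3750 and 3533 at an unadjusted p under 0.05, and without AML 3 it was 279. Same-numbered arrays deviated from their group means at correlations of 0.24, -0.30 and -0.25 across genes. Deviations from a mean of 3 arrays depend on each other, so these values cannot show whether the numbers pair the arrays. The block ended the call of Erlin1 (limma adjusted p = 0.0986). Dim genes such as Lss lie near the array medians, where a difference may be understated.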

Other observations

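The fatty acid arm of the SREBP system, driven mainly by SREBP1, was mixed. In limma 0 of 10 measured genes passed. At an unadjusted p under 0.05, 4 were past, 3 higher and 1 lower in AML. The share past it was 21.5% of all genes and 30.8% of the brighter 50%. The list's median difference was -0.31, with Scd2 not analysed here. That median was 0.062 without AML 1, -0.58 without AML 3, -0.12 without CML 2 and -0.16 after median centring and without AML 2. Fasn, the fatty acid synthase gene, was at 6.35, 6.29 and 7.20 in AML and at 5.49, 5.55 and 5.70 in CML, so its groups did not overlap (difference 1.04 ± 0.26, SE; limma adjusted p = 0.107). Acly, which makes cytosolic acetyl-CoA from citrate, was 0.70 ± 0.21 higher by value, also without overlap, and Elovl5, an elongase of polyunsaturated fatty acids, 1.29 ± 0.53 (SE; limma adjusted p = 0.137 and 0.225). Of all the fits, Elovl5 passed only in that without CML 1 (1.88 ± 0.30, SE; limma adjusted p = 0.0483). Acss2, which makes acetyl-CoA from acetate, was at -1.03 as fitted. It passed, as lower in AML, only in the fit without AML 3 (-1.56 ± 0.17, SE; limma adjusted p = 0.0277). Scd1, the desaturase that makes monounsaturated fatty acids, stood the other way, at 4.56, 4.83 and 3.55 in AML and at 8.04, 4.97 and 6.28 in CML. Its AML arrays were all below its CML arrays, by 0.14 at the closest pair, and CML 1 was brightest (difference -2.12 ± 0.76, SE; limma adjusted p = 0.191). Without CML 1 the difference was -1.31, and without CML 2 it was -2.85.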
